A study of Homo sapiens with 6 samples.

Results

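Neuroendocrine tumour cells store peptides in dense-core granules and release them through the same fusion machinery that neurons use at synapses. The 36 genes described here encode granule proteins, enzymes that process peptides, vesicle and fusion proteins, and neuronal enzymes, cytoskeletal, channel and RNA-binding proteins. They were taken by gene symbol from a list, and each symbol matched 1 of the 58735 gene IDs in the deposited table through GENCODE release 29. Several of them, CHGA, SYP, ENO2 and NCAM1 among them, are stained by pathologists to recognise neuroendocrine prostate cancer. That form of the disease can appear after hormonal treatment. Granule proteins and their cargo are cut by convertases inside the granule, synaptotagmins sense calcium, and SNARE proteins draw the vesicle and plasma membranes together.

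The messenger RNA libraries came from 2 human prostate cancer cell lines. NCI-H660, written H660 in the labels, is a model of neuroendocrine prostate cancer. C4-2B MDVR is a derivative of C4-2B that grows in enzalutamide, a drug used against prostate cancer. Each line gave 1 library with PLXND1 siRNA 1, 1 with PLXND1 siRNA 2 and 1 with a control siRNA, where PLXND1 encodes Plexin D1, a receptor for semaphorins (chr3:129555175-129606818, minus strand, GRCh38). The series asks what Plexin D1 does in the shift of treatment-resistant prostate cancer towards a neural state. Each siRNA and control was used once per line, and whether the libraries are separate cultures is not stated in the labels.

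The libraries held 17655802 to 24105369 fragments assigned to genes. PLXND1 itself was at 7.62 and 7.54 FPKM with siRNA 1 and siRNA 2 in H660, against 9.13 FPKM in its control. In C4-2B MDVR it was at 1.57 and 3.10 FPKM with the siRNAs, against 7.40 FPKM in the control, so the targeted gene was reduced far less in H660. The mitochondrial share was 7.44% and 6.83% with siRNA 1 and siRNA 2 in C4-2B MDVR, against 3.38% in its control, the lowest of the 6 libraries. The lines matched their labels by the levels of markers that are no part of the 36 genes. Of 9 luminal prostate markers, 8 were called lower in H660, where the list summed to 3.20, 4.02 and 4.56 FPKM with siRNA 1, siRNA 2 and control, against 1677, 906 and 1256 FPKM in C4-2B MDVR. TRPM8 was the exception, higher in H660. Of 9 neuroendocrine markers, 8 reached a mean of 1 FPKM in a line and were tested. Of these, 7 were called higher and 0 lower in H660. The list of 9 summed to 903, 966 and 919 FPKM in H660, against 7.92, 10.7 and 12.5 FPKM in C4-2B MDVR. DLL3, a Notch ligand, made up most of the sum in C4-2B MDVR, at 6.66, 8.65 and 10.4 FPKM. The 8 luminal genes called lower reached a mean of 1 FPKM in C4-2B MDVR alone. Of the 7 neuroendocrine genes called higher, 6 reached it in H660 alone. They entered the test through the line where they were high, so these calls say little beyond the levels. Among all genes tested, 17.9% were called lower and 20.1% higher in H660.

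The secretory and synaptic genes were mostly an H660 feature, with a small group that was as high or higher in C4-2B MDVR. Levels are in FPKM, fragments scaled to exon length and library size, which can be compared between genes. Together the 36 genes summed to 714, 706 and 706 FPKM with siRNA 1, siRNA 2 and control in H660, against 186, 139 and 124 FPKM in C4-2B MDVR. A mean of at least 1 FPKM over a line's 3 libraries was reached by 27 genes in H660 and by 10 in C4-2B MDVR, and these 10 were also among the 27. The other 9 stayed below 1 FPKM in each line. In bulk libraries, fewer cells with a transcript and less of it per cell cannot be told apart.

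**Figure D1:**
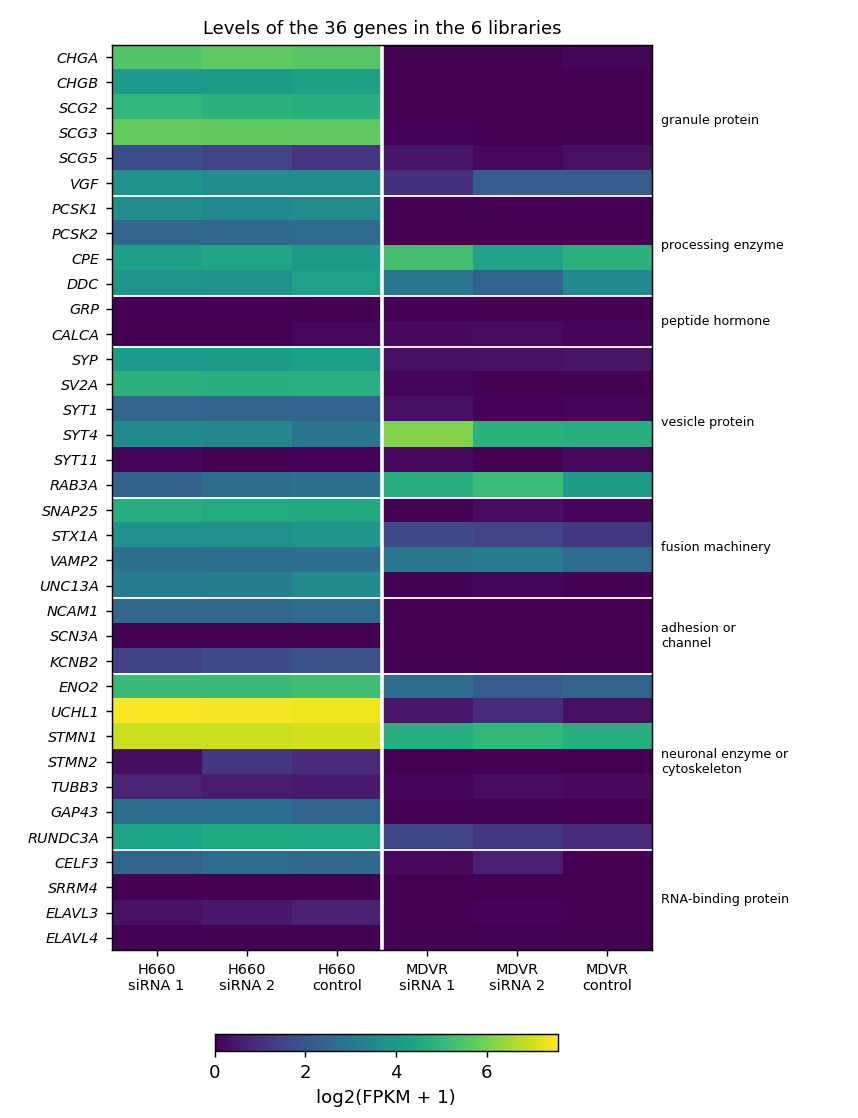
Level of each of the 36 genes as log2(FPKM + 1), colour scale 0 upwards, in each library (columns) with genes in rows by role. The H660 columns on the left are filled for the granule, vesicle and fusion genes, while SYT4, RAB3A, CPE and STMN1 stand out in the C4-2B MDVR columns on the right.

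The line difference was tested with limma on log2(FPKM + 1) in a fit of line and treatment over all 6 libraries, adjusted over 15638 genes by the Benjamini-Hochberg method. A call needed an adjusted p under 0.05 and a 2-fold difference on the log2(FPKM + 1) scale. Of the 36 genes, 23 were called higher and 2 lower in H660, 2 were tested and not called, and 9 were too low to be tested. Among all genes tested, 38.0% were called, 20.1% higher and 17.9% lower in H660. With mitochondrial genes and short RNAs left out and libraries rescaled, 3854 genes were called higher and 2105 lower, against 3143 and 2803, while the members stayed at 23 and 2. The median difference of the 27 was 2.58 log2 units, against −0.00 for all genes tested. The 17 genes that reached 1 FPKM in H660 alone entered the test through that line, so their calls say little beyond their levels. They also pull the median of the 27 upwards, and no gene of the 36 reached 1 FPKM in C4-2B MDVR alone. Among the 10 genes expressed in both lines, 6 were called higher and 2 lower in H660, where 11.4% and 15.9% of the 11196 genes expressed in both lines were. Every H660 library lay above every C4-2B MDVR library for 23 of the 27 genes tested, and below it for 2, against 37.1% and 37.4% of all genes tested. The 23 include the 17 that entered through H660, so this count has the same limit as the calls.

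**Figure D2:**
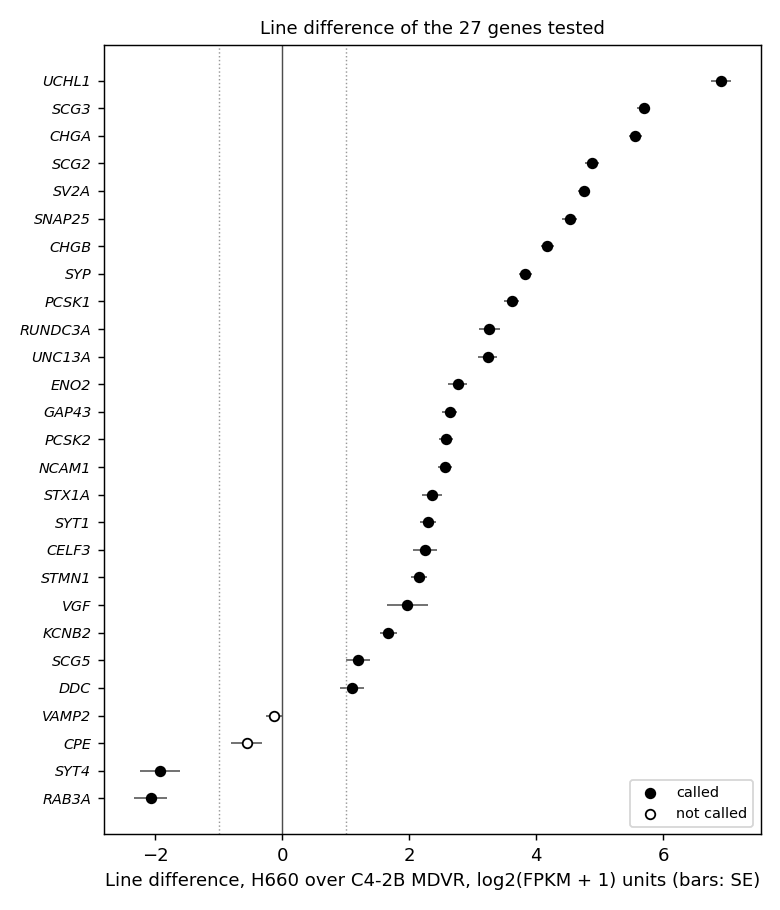
Line difference of the 27 genes tested, H660 over C4-2B MDVR, on the log2(FPKM + 1) scale with its SE as bars (n = 3 libraries a line). Filled points were called and open points were not, and dotted lines mark a 2-fold difference. UCHL1 is at the top at 6.91, while RAB3A at −2.08 and SYT4 at −1.93 are at the bottom.

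Of the 6 granule proteins, 4 were abundant in H660 and had at most 6 fragments over the C4-2B MDVR libraries. Granins are the acidic proteins that fill dense-core granules. CHGA, which encodes chromogranin A, was at 45.8, 50.6 and 47.3 FPKM with siRNA 1, siRNA 2 and control in H660, against 0, 1 and 5 fragments in the C4-2B MDVR libraries. SCG3, secretogranin III, which helps to sort chromogranin A into granules, was at 53.1, 51.6 and 50.9 FPKM in H660, against 4, 0 and 0 fragments. SCG2, the precursor of secretoneurin, was at 31.5, 28.4 and 26.3 FPKM in H660, with 1, 0 and 0 fragments in C4-2B MDVR. These 3 were called higher in H660 by 5.57 ± 0.10, 5.70 ± 0.10 and 4.88 ± 0.11 log2 units (SE). CHGB, chromogranin B, was at 16.2, 16.6 and 18.6 FPKM in H660 and had no fragment in any C4-2B MDVR library. Set against the 3 fragments per library that a count of 0 allows, its mean was at least 487-fold higher in H660.

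VGF and SCG5 had weaker line differences than these 4 granule genes. VGF, a growth-factor-induced granule protein that is cut into several peptides, was at 13.6, 11.6 and 12.3 FPKM in H660, against 1.01, 3.62 and 3.39 FPKM in C4-2B MDVR. Its line difference was 1.97 ± 0.32 log2 units. SCG5, the chaperone 7B2 that prohormone convertase 2 needs, was at 2.56, 1.91 and 1.20 FPKM in H660, against 0.339, 0.112 and 0.264 FPKM. It was called at 1.20 ± 0.19 log2 units, but quantile normalization put it at 0.80, under the 2-fold limit on the log2(FPKM + 1) scale. By their mean FPKM, VGF and SCG5 were 4.67-fold and 7.92-fold higher in H660.

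Promoter letters are shown for 3 granule or processing genes that were called higher in H660 and have a window with the cAMP response element TGACGTCA. This is a site known to bind CREB. Letters are also shown for the pair called lower. RefSeq windows on GRCh38.p14 matched 27 of the 36 genes. Each line below holds the 250 bases before a RefSeq start, on the gene's own strand. Capitals mark TGACG and its reverse complement CGTCA, which overlap to form the full element.
CHGA: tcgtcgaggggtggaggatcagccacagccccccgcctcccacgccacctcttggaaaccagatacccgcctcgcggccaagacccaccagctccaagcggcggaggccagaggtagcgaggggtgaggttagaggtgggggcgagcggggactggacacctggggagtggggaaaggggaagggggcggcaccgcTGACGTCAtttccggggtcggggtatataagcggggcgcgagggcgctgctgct
PCSK1: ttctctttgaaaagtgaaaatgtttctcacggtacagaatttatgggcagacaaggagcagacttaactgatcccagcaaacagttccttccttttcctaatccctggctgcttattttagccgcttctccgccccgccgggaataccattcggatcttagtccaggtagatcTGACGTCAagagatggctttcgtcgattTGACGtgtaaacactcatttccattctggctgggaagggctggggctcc
VGF: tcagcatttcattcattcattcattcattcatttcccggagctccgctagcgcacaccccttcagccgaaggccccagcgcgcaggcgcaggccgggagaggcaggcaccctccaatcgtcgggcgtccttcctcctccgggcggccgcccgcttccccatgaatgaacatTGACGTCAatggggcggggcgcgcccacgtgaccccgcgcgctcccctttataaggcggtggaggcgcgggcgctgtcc
SYT4: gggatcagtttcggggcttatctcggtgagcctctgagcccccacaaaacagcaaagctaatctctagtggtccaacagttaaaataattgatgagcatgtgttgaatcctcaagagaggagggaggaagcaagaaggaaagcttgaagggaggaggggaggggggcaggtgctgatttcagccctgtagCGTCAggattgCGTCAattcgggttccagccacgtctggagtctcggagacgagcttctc
RAB3A: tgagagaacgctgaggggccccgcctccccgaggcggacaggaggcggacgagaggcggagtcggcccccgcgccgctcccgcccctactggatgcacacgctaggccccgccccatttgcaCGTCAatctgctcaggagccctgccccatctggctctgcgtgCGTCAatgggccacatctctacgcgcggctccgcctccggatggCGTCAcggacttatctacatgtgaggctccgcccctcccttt
The windows are chr14:92922900-92923149 on the plus strand for CHGA, chr5:96433249-96433498 for PCSK1, chr7:101165570-101165819 for VGF, chr18:43277491-43277740 for SYT4 and chr19:18204043-18204292 for RAB3A, the last 4 on the minus strand. The full element begins at −54 in CHGA, −77 in PCSK1 and −79 in VGF, counted from the RefSeq start of the window shown. Another PCSK1 window, chr5:96432161-96432410, holds neither the full element nor TGACG on either strand. The full element was in 3 of 40 windows of the 27 genes, or 7.50%, and in 1.99% of the 21021 windows of protein-coding genes. The core TGACG, which the full element contains, was on either strand in 17 of the 40 windows (42.5%), against 24.2% of protein-coding windows. SYT4 and RAB3A hold the core without the full element. A match is a description of letters and says nothing of binding in these cells.

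Among the processing enzymes, the neuroendocrine convertases were H660 genes while carboxypeptidase E was shared. PCSK1, prohormone convertase 1, was at 12.2, 10.5 and 11.6 FPKM in H660, against 0, 0 and 4 fragments in C4-2B MDVR. PCSK2, prohormone convertase 2, was at 4.63, 5.03 and 5.28 FPKM in H660, and no fragment was counted in C4-2B MDVR, so its mean was at least 221-fold higher in H660. The line differences were 3.61 ± 0.11 and 2.58 ± 0.11 log2 units. CPE, which trims the basic residues that convertases leave, was at 18.2, 21.3 and 16.5 FPKM in H660, against 38.8, 19.7 and 28.2 FPKM in C4-2B MDVR. The ranges overlapped, and CPE was not called (−0.56 ± 0.25, limma adjusted p = 0.0871). DDC, the decarboxylase that makes dopamine and serotonin, was at 15.1, 13.5 and 19.2 FPKM in H660, against 6.86, 4.24 and 10.5 FPKM in C4-2B MDVR. It was called higher in H660 at 1.10 ± 0.19 log2 units, and without the C4-2B MDVR siRNA 2 library the difference was 0.90, under the 2-fold limit.

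The peptide hormones on the list were nearly absent. GRP, gastrin-releasing peptide, had 0 fragments in all 6 libraries, which allows a mean of up to 0.143 FPKM in H660 and 0.187 FPKM in C4-2B MDVR by the 3-fragment limit. CALCA, the calcitonin gene, had 2, 0 and 6 fragments in H660 and 6, 6 and 3 in C4-2B MDVR, too few to set the lines apart. None of 30 genes used by every cell was listed at 0 in any library.

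Vesicle proteins split between the lines. SYP, the vesicle membrane protein synaptophysin, was at 16.2, 16.8 and 18.2 FPKM in H660, against 0.229, 0.260 and 0.324 FPKM in C4-2B MDVR. SV2A, a vesicle glycoprotein, was at 28.2, 26.3 and 27.1 FPKM in H660, against 0.0721, 0.0255 and 0.0400 FPKM, and SYT1, the calcium sensor of fast release, at 4.61, 4.39 and 4.52 FPKM, against 0.245, 0.0569 and 0.0817 FPKM. All 3 were called, at 3.83, 4.75 and 2.29 log2 units. SYT4, a synaptotagmin of granules that binds calcium poorly in mammals, was at 11.2, 9.81 and 6.68 FPKM in H660, against 69.3, 28.4 and 26.1 FPKM in C4-2B MDVR. RAB3A, a small GTPase that tethers vesicles, was at 4.07, 5.34 and 5.999 FPKM in H660, against 25.8, 34.8 and 16.7 FPKM. For each of these 2 genes every C4-2B MDVR library was above every H660 library. They were called lower in H660, SYT4 at −1.93 ± 0.31 log2 units (limma adjusted p = 0.00203) and RAB3A at −2.08 ± 0.26 (limma adjusted p = 0.000714). SYT4 was the highest of the 36 genes in C4-2B MDVR, above 94.5% of protein-coding genes by its mean of 41.3 FPKM. SYT11 stayed at 15 fragments or fewer in every library. RAB3A shares 165 exon bases, 9.08% of its exons, with MPV17L2 on the other strand, and the sources used here do not say whether strand was used in counting.

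The fusion machinery was unevenly shared. SNAP25, a plasma-membrane SNARE protein, was at 26.2, 24.0 and 23.2 FPKM in H660, against 1, 11 and 7 fragments in C4-2B MDVR, a difference of 4.53 ± 0.12 log2 units. STX1A, syntaxin 1A, its partner SNARE, was at 13.1, 12.97 and 14.96 FPKM in H660, against 2.39, 1.92 and 1.33 FPKM (2.36 ± 0.16). UNC13A, which primes vesicles for fusion, was at 7.58, 8.08 and 11.4 FPKM in H660, against 9, 15 and 5 fragments (3.24 ± 0.15). These 3 were called and did not overlap between the lines. VAMP2, the vesicle SNARE, was level: 5.95, 5.75 and 5.78 FPKM in H660, against 6.79, 7.61 and 5.22 FPKM in C4-2B MDVR. Its difference was −0.13 ± 0.13 log2 units (limma adjusted p = 0.383), and it turned to 0.12 when mitochondrial genes and short RNAs were left out and libraries rescaled. STX1A shares 662 exon bases, 17.9% of its exons, with BUD23 on the other strand, and 430 exon bases of VAMP2 lie also in a same-strand gene listed at 0.

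In H660 the highest levels among the 36 genes were those of UCHL1 and STMN1. UCHL1, a deubiquitinase abundant in neurons, was at 189, 179 and 170 FPKM in H660, above 99.5% of protein-coding genes, against 0.413, 0.917 and 0.232 FPKM in C4-2B MDVR. Its mean was 344-fold higher in H660. STMN1, stathmin, which destabilises microtubules in dividing cells as well as neurons, was at 125, 124 and 130 FPKM in H660, against 25.6, 31.4 and 26.0 FPKM. ENO2, neuron-specific enolase, was at 33.1, 34.3 and 37.1 FPKM in H660, against 5.24, 3.44 and 4.25 FPKM. By their means STMN1 and ENO2 were 4.57-fold and 8.08-fold higher in H660, so these stained or abundant markers were far from absent in C4-2B MDVR. RUNDC3A, a RUN-domain protein of neurons, was at 20.1, 23.2 and 21.8 FPKM in H660, against 2.00, 1.33 and 0.895 FPKM, and 225 of its exon bases overlap RUNDC3A-AS1, which averaged 5.51 FPKM in C4-2B MDVR and 0.369 FPKM in H660. GAP43, a growth-cone protein, was at 5.36, 5.91 and 4.45 FPKM in H660, with 0 fragments in every C4-2B MDVR library. TUBB3, neuronal class III beta-tubulin, was low in both, at 0.644, 0.482 and 0.447 FPKM in H660, against 0.0673, 0.181 and 0.142 FPKM, and 1584 of its exon bases lie also in a same-strand gene listed at 0. STMN2, a neuronal stathmin, had 10, 79 and 53 fragments in H660 and 0 in every C4-2B MDVR library.

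Surface and RNA-binding genes of neurons were low where present. NCAM1, the adhesion molecule CD56, was at 4.77, 4.77 and 5.34 FPKM in H660, against 1, 2 and 0 fragments in C4-2B MDVR. KCNB2, a voltage-gated potassium channel, was at 1.76, 2.21 and 2.65 FPKM in H660 and at 0 fragments in C4-2B MDVR. SCN3A, a sodium channel, had 2 fragments in 1 C4-2B MDVR library and none elsewhere. CELF3, a neuronal splicing regulator, was at 4.31, 5.27 and 4.97 FPKM in H660, against 12, 43 and 1 fragments in C4-2B MDVR. SRRM4, which drives neuronal microexon splicing and inactivates the repressor REST by splicing, had 0 fragments in all 6 libraries, which allows up to 0.0138 FPKM in H660. ELAVL4, which encodes the neuronal RNA-binding protein HuD, likewise had none, and ELAVL3, its relative HuC, had 29, 51 and 71 fragments in H660 and at most 4 in C4-2B MDVR.

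Further genes of the same pathways, taken from 5 lists, were called in both directions, where 20.1% of all genes tested were called higher and 17.9% lower in H660. Genes that reached 1 FPKM in H660 alone entered the test through that line, so their calls say little beyond their levels. They also pull the medians of these lists upwards. Of 10 other granule and processing genes tested, 6 were called higher in H660, 2 of them at 1 FPKM in H660 alone, and 1 lower, which reached 1 FPKM in C4-2B MDVR alone. Their median was 1.29 log2 units, against −0.00 for all genes. PAM, which amidates peptides, was at 16.7, 17.02 and 20.03 FPKM in H660, against 1.77, 1.08 and 1.26 FPKM. PTPRN2, a granule membrane protein, and PCSK1N, an inhibitor of prohormone convertase 1, were also called higher (2.86 and 2.37), and the convertase PCSK6 was called lower (−1.19). Of 27 other vesicle and exocytosis genes tested, 14 were called higher, 11 of them at 1 FPKM in H660 alone, and 4 lower, with a median of 1.04. CPLX2, complexin 2, which clamps and promotes SNARE fusion, was at 28.6, 29.01 and 31.02 FPKM in H660 and at 0 in every C4-2B MDVR library. SYN1 (3.20) and SV2B (2.85) followed it, while the vesicle-type proteins SYPL1 (−2.63), RAB3D (−2.05) and SYNGR1 (−1.64) were called lower. RAB3D is a granule GTPase of exocrine cells, so RAB3A and RAB3D were higher in C4-2B MDVR, RAB3C was called higher in H660 (1.501), and RAB3B was close between the lines, at 18.56, 16.0003 and 22.5 FPKM in H660, against 19.2, 16.8 and 18.8 FPKM.

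The cytoskeleton and RNA-binding list had 15 of 20 tested genes called higher in H660, 9 of them at 1 FPKM in H660 alone, and 2 lower, 1 of them at 1 FPKM in C4-2B MDVR alone, with a median of 2.34. Its leaders were TUBB2B (6.13), STMN3 (5.57) and INA (4.997), which encode a tubulin, a stathmin and a neurofilament protein of neurons, and MAPT, which encodes tau, was called lower (−1.87). RCOR1, a corepressor that works with REST, was the other gene called lower (−1.13). REST, the repressor of neuronal genes, was at 3.75, 3.70 and 3.26 FPKM in H660, against 7.44, 8.28 and 8.05 FPKM in C4-2B MDVR. Its difference of −0.97 ± 0.11 passed the adjusted p and fell short of 2-fold on the log2(FPKM + 1) scale. That scale understates ratios of FPKM at low levels. While SRRM4 and ELAVL4 were at 0, their relatives SRRM3 and ELAVL2 were at 7.26, 8.42 and 8.05 FPKM and at 5.67, 4.86 and 3.72 FPKM in H660, and both were called higher there.

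Secreted peptides differed by kind. Of 9 other peptide genes tested, 5 were called higher in H660, all 5 at 1 FPKM in H660 alone, and 2 lower, 1 of them at 1 FPKM in C4-2B MDVR alone, with a median of 1.51. PTHLH (2.30), ADCYAP1 (2.17) and ADM (1.68), which encode parathyroid hormone-related protein, PACAP and adrenomedullin, had the largest differences upwards. GAL, the neuropeptide galanin, was at 0.0327, 0.0597 and 0.342 FPKM in H660, against 35.1, 48.0 and 45.2 FPKM in C4-2B MDVR. With NMU, neuromedin U (−2.59), it made up the genes called lower. Of 10 other channel and adhesion genes tested, 7 were called higher, all 7 at 1 FPKM in H660 alone, and 1, CNTNAP2 (−1.16), lower, at 1 FPKM in C4-2B MDVR alone, with a median of 1.41, led by KCNH6 (2.44), CNTN1 (2.32) and KCNC1 (1.93).

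**Figure D3:**
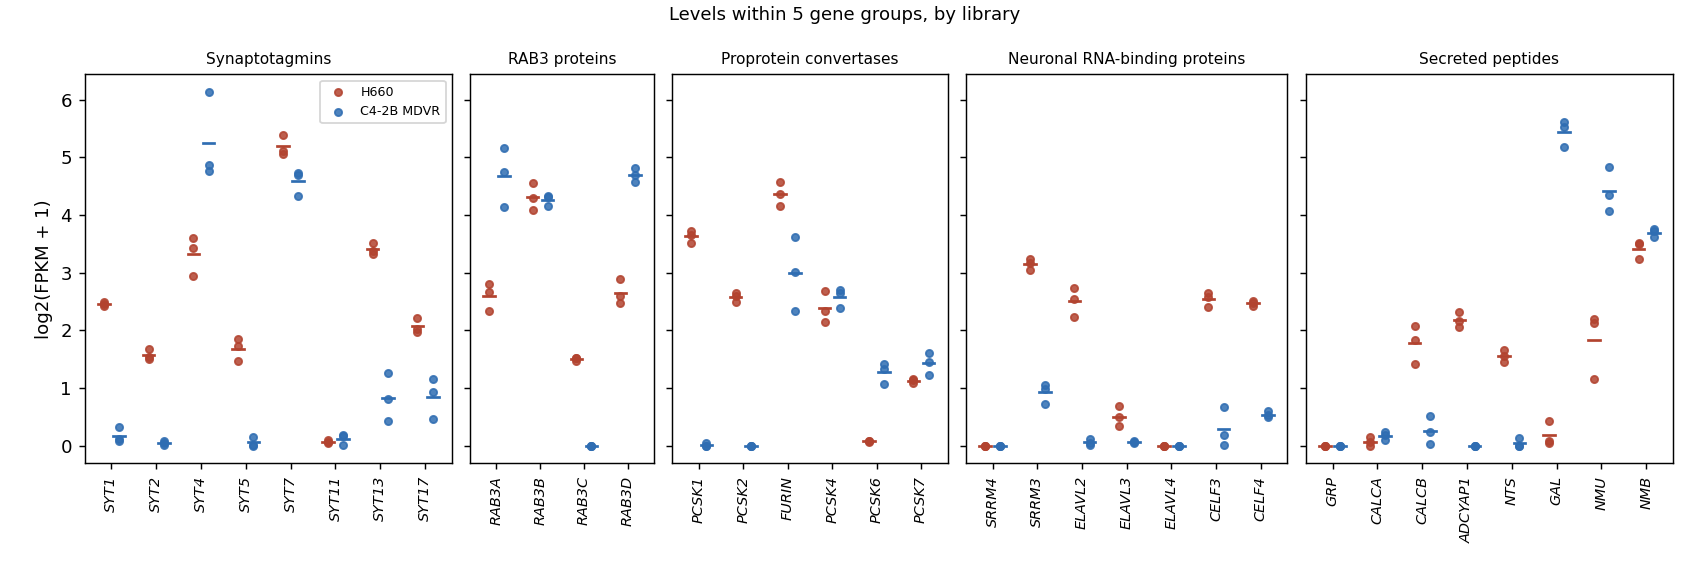
Level of each library as a point, log2(FPKM + 1), with the mean as a bar, for H660 (red, left in each pair) and C4-2B MDVR (blue, right), in 5 groups of related genes. SYT4, RAB3A, RAB3D, GAL and NMU lie higher in C4-2B MDVR, and SRRM4, ELAVL4 and GRP lie at 0 in both lines while SRRM3, ELAVL2 and ADCYAP1 are raised in H660.

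The knockdown comparison asks whether PLXND1 siRNAs moved these genes. Both ratios within a line share its lone control library, so agreement of the siRNAs is not independent. In a limma fit of 4 groups, 0 of the 27 members tested were called in H660 or in C4-2B MDVR, as were 0 of all 15638 genes (0%). At an unadjusted p under 0.05 there were 1 of the 27 tested in H660, UNC13A, and 2 in C4-2B MDVR, RAB3A and DDC, against 647 and 921 of all genes. Limma's voom on recovered fragments also called 0, with 1 and 5 of the 27 at that level. By size, 0 of the 27 members counted in H660 and 0 of the 10 counted in C4-2B MDVR, each with a mean of at least 1 FPKM in the line and 50 fragments in 1 library, were 2-fold from the control with both siRNAs, where 0.646% of genes in H660 (0.545% higher, 0.101% lower) and 1.30% in C4-2B MDVR (1.05% higher, 0.254% lower) were. In C4-2B MDVR the looser rule of 50 fragments and no minimum FPKM also gave 0 of the 10 members counted, against 1.41% of genes higher and 0.451% lower, and in H660 0 of 30, against 0.666% and 0.284%. Below that minimum in C4-2B MDVR, CELF3 had 12 and 43 fragments with siRNA 1 and siRNA 2, against 1 in the control, ratios of 12.4 (95% counting interval 1.83 to 528) and 54.9 (9.34 to 2218). CALCA had 6 and 6 fragments, against 3, ratios of 2.06 (0.440 to 12.7) and 2.55 (0.545 to 15.8). These 2 were named after their values were seen, and both rest on a control of 3 fragments or fewer. The design of 2 knockdown libraries and 1 control a line is small, and these counts do not show that the genes were unaffected.

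In H660 the set stayed close to the control. Of the 27 expressed genes, 8 were above the control with both siRNAs, 11 below it with both and 8 on either side. The matching shares of all genes are not given here. With both siRNAs 23 of the 27 lay within 1.5-fold of the control, as did 84.3% of all 13791 genes of at least 1 FPKM. Their median log2 ratio was −0.05 with siRNA 1 and −0.04 with siRNA 2, against −0.03 and −0.01 for all genes. The granule and vesicle markers were at 96.8% and 107% of the control for CHGA, 104% and 101% for SCG3, 89.0% and 92.4% for SYP and 103.9% and 97.1% for SV2A with siRNA 1 and siRNA 2.

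A few H660 genes lay further out. SCG5 had 132 and 108 fragments with the siRNAs, against 65 in the control, ratios of 2.14 (95% counting interval 1.58 to 2.92) and 1.60 (1.16 to 2.21). It was the 1 member at least 1.5-fold from the control with both siRNAs, where 3.45% of genes were, 2.72% higher and 0.731% lower. Its difference of 0.55 ± 0.23 log2 units did not pass the adjusted test by limma. SYT4 was at 11.2 and 9.81 FPKM, against 6.68 FPKM in the control, ratios of 1.67 (1.53 to 1.84) and 1.47 (1.34 to 1.61). UNC13A was at 7.58 and 8.08 FPKM, against 11.4 FPKM, ratios of 0.666 (0.629 to 0.704) and 0.709 (0.672 to 0.748). Its difference of −0.49 ± 0.15 did not pass the adjusted test by limma either. KCNB2 was at 1.76 and 2.21 FPKM, against 2.65 FPKM, ratios of 0.663 (0.536 to 0.818) and 0.834 (0.688 to 1.01). STMN2 differed between the siRNAs, at 10 fragments with siRNA 1 and 79 with siRNA 2, against 53 in the control. Such intervals hold counting error alone, and reads from PCR copies are not independent molecules.

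**Figure D4:**
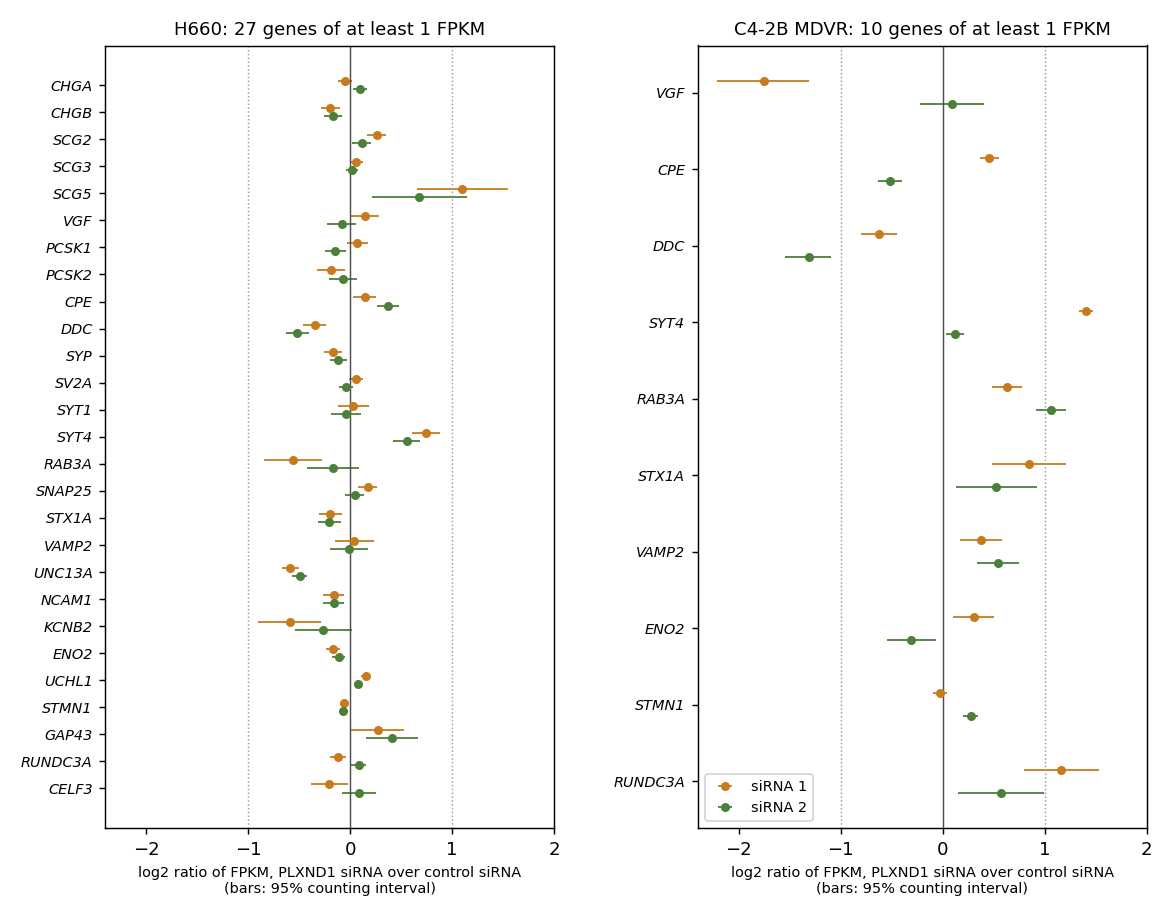
Ratio of FPKM with each PLXND1 siRNA over the control siRNA on a log2 axis, for the members of at least 1 FPKM in H660 (left) and C4-2B MDVR (right). Points are single libraries, bars are 95% counting intervals, and dotted lines mark 2-fold. In H660 the points cluster around 0, while in C4-2B MDVR they spread from VGF at 0.298 times the control to SYT4 at 2.65 times, both with siRNA 1.

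In C4-2B MDVR the 10 expressed genes were more spread. In FPKM with both siRNAs 5 were above the control, RAB3A, STX1A, VAMP2, RUNDC3A and SYT4, and 1, DDC, was below it, with 4 on either side. For SYT4 with siRNA 2 this rests on the library scale factor described under processing, which raises both siRNA ratios of every gene in this line. The shares of all genes above and below the control with both siRNAs are not given here. Within 1.5-fold of the control with both siRNAs lay 4 of the 10, against 70.1% of all 12782 genes of at least 1 FPKM. The median log2 ratio of the 10 was 0.42 with siRNA 1 and 0.20 with siRNA 2, against 0.04 and 0.05 for all genes. The control of this line also had the low mitochondrial share, whose part in these differences was not tested.

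RAB3A was at 25.8 and 34.8 FPKM with siRNA 1 and siRNA 2, against 16.7 FPKM in the control, ratios of 1.55 (1.40 to 1.71) and 2.09 (1.89 to 2.31). DDC was at 6.86 and 4.24 FPKM, against 10.5 FPKM, ratios of 0.651 (0.576 to 0.735) and 0.403 (0.344 to 0.470). In FPKM they were the 2 members at least 1.5-fold from the control with both siRNAs. Among all genes 4.26% were, 3.03% higher and 1.23% lower. For RAB3A with siRNA 1 this rests on the library scale factor described under processing. It had 944 of 21748669 recovered fragments there, against 628 of 20502382 in the control, a share less than 1.5-fold the control's. Neither RAB3A nor DDC passed the test. For RAB3A limma gave 0.81 ± 0.26 log2 units (adjusted p = 0.820), and for DDC −0.85 ± 0.29 (adjusted p = 0.823). STX1A was at 2.39 and 1.92 FPKM, against 1.33 FPKM (0.43 ± 0.17), RUNDC3A at 2.00 and 1.33 FPKM, against 0.895 FPKM (0.48 ± 0.22), and VAMP2 at 6.79 and 7.61 FPKM, against 5.22 FPKM (0.40 ± 0.15). Of these, STX1A, RUNDC3A and VAMP2 had adjusted p values by limma of 0.854, 0.892 and 0.854.

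The siRNAs gave unlike values for SYT4 and VGF in C4-2B MDVR. SYT4 was at 69.3 FPKM with siRNA 1 and 28.4 FPKM with siRNA 2, against 26.1 FPKM in the control, ratios of 2.65 (2.53 to 2.78) and 1.09 (1.02 to 1.15). VGF was at 1.01 and 3.62 FPKM, against 3.39 FPKM, ratios of 0.298 (0.217 to 0.404) and 1.07 (0.860 to 1.33). Without the siRNA 1 library the VGF difference was 0.07 in place of −0.53 log2 units, and that of SYT4 was 0.12 in place of 0.74. A 2-fold gap between the siRNAs was met by 6.53% of genes in C4-2B MDVR and by 1.10% in H660. CPE was close to it, at 38.8 and 19.7 FPKM with the siRNAs, against 28.2 FPKM in the control. The luminal markers moved with the siRNA too, summing to 1677 and 906 FPKM with siRNA 1 and siRNA 2, against 1256 FPKM in the control, and their part in the SYT4, VGF and CPE values was not tested.

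Among the 10 genes expressed in both lines, DDC and SYT4 kept 1 direction throughout in FPKM. The share of all genes that did so is not given here, so this describes these 2 genes and no trait of the set. DDC was below the control in all 4 knockdown libraries, with a fitted difference over both lines of −0.63 ± 0.20 log2 units (limma adjusted p = 0.985). SYT4 was above the control in all 4 in FPKM, at 0.66 ± 0.33 (limma adjusted p = 0.985). In the C4-2B MDVR siRNA 2 library this rests on a scale factor in the deposited values (0.920, against 1.01 in the control). SYT4 had 2045 of 17655802 recovered fragments there, against 2403 of 20502382 in the control, a share no higher than the control's. For the difference of the knockdown change between the lines, limma called 0 of the 27 members tested and 0 of all genes (0%), with 1 and 701 at an unadjusted p under 0.05. By voom these were 4 and 713, with 0 called. For the change over both lines 0 were called too, with 1 of the 27 and 654 of all genes at that level by limma, 1 and 729 by voom, and 0 called by voom.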

How the data were processed

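Per the labels' protocols, messenger RNA libraries were sequenced as paired ends of 150 bases. The submitters' processing notes name HISAT, Cufflinks and hg18, with no versions. The authors deposited FPKM per gene, 1 column a library, and no filter was seen. All 58735 gene IDs are in GENCODE release 29, which gave names, exon lengths and GRCh38 positions. FPKM times exon length came out as whole fragments, within 0.05, for all genes of at most 100 fragments (11224 to 13428 a library), so fragments were recovered. The step implies totals of 0.920 to 1.08 times the recovered ones, a factor of unstated source that was kept. In C4-2B MDVR it was 0.926 and 0.920 with siRNA 1 and siRNA 2, against 1.01 in the control, which raises both siRNA ratios there.

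Genes with a mean of at least 1 FPKM in 1 line or more were tested with limma 3.58.1 in R 4.3.3 on log2(FPKM + 1), two-sided with an intensity trend, which understates changes of low genes. The line fit had 3 residual degrees of freedom and the fit of 4 groups had 2. Lone controls were thus assumed to vary like the knockdown pairs. P-values measure the spread between these libraries, which may be technical. In the fit of 4 groups this spread is the gap between siRNA 1 and siRNA 2, pooled over both lines. Its SE for H660 thus also holds the C4-2B MDVR gap. A 2-fold gap was met by 6.53% of genes in C4-2B MDVR and by 1.10% in H660. The rule of size needed 50 fragments in 1 library and a mean of 1 FPKM in the line. Intervals are 95% exact Poisson or binomial. The genes and lists were chosen with earlier results of these data known. The fits were also run on simulated counts that held no difference between the siRNAs. That run says nothing of the spread between the siRNAs here, and its outcome is not given. Named genes were the members above 1 FPKM, those 1.5-fold from the control with both siRNAs or 2-fold between siRNAs, and up to 3 called each way per further list; others that are named were chosen after their values were seen. Alternatives were another pseudocount, no filter, voom, quantile normalization, rescaling, a replicate block and leaving out each library.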

Additional observations from a re-analysis of the deposited data

Results flagged for a closer look

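RAB3A and STX1A were above the control with both siRNAs in C4-2B MDVR and below it with both in H660, among members with at least 50 fragments in a library of each line. RAB3A was at 4.07 and 5.34 FPKM with the siRNAs, against 5.999 FPKM in the control, in H660, and at 25.8 and 34.8 FPKM, against 16.7 FPKM, in C4-2B MDVR. The change in H660 minus that in C4-2B MDVR was −1.11 ± 0.37 log2 units, which did not pass (limma adjusted p = 0.985). STX1A was at 13.1 and 12.97 FPKM, against 14.96 FPKM, in H660, and at 2.39 and 1.92 FPKM, against 1.33 FPKM, in C4-2B MDVR, a difference of −0.62 ± 0.24 (limma adjusted p = 0.985). Each rests on 1 control a line, and both genes share exon bases with a gene on the other strand.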

How the results depend on the processing

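The 25 line calls of members ranged from 24 to 26 without any 1 library and over the other settings, with 22 to 24 higher and 2 lower without any 1 library. Dropping the fold limit put the calls over all genes at 10915, against 5946. VAMP2 turned to 0.12 when mitochondrial genes and short RNAs were left out and libraries rescaled, which moved the median line difference of all genes to 0.26. The VGF knockdown value in C4-2B MDVR ran from −1.13 to 0.074 without any 1 library. Members called in a knockdown comparison stayed at 0 in every alternative run. Over all genes the knockdown calls in H660 ran from 0 to 49 without any 1 library, the 49 being without the H660 siRNA 2 library. They were 1 with a pseudocount of 0.1, 1 with quantile normalization and 1 in the fit with the replicate block (siRNA 1 paired with siRNA 1, siRNA 2 with siRNA 2). With no filter they were 876 in H660, 851 in C4-2B MDVR and 1372 for the difference between lines, against 0 each; the cause was not tested. Rescaling gave 2 in C4-2B MDVR. A 1.5-fold rule raised the genes meeting it from 154 to 503 in C4-2B MDVR, with 2 members, and from 83 to 444 in H660, with 1 member, and no fragment minimum gave 308 and 244. The siRNA numbers did not deviate together between lines (correlation −0.00435 over 15638 genes, given as a description). With the replicate block the line calls over all genes were 5993, of which 25 were members, and the other knockdown comparisons stayed at 0. Depth limits members under about 50 fragments, for which ratios are loose.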

Other observations

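Neuronal genes at low levels in C4-2B MDVR were looked at with a rule chosen after the values were seen, 50 fragments in 1 library and no minimum FPKM. Of 131 genes on the 5 further lists, 58 were counted in C4-2B MDVR, and 6 were at least 2-fold above the control with both siRNAs, where 1.41% of all genes were, and 0 were 2-fold below it, where 0.451% were. They were SYT13 and SYT17, which encode synaptotagmins, SYNGR3, a vesicle protein, DPYSL5, of growth cones, KCNH2, a potassium channel, and NOVA2, a neuronal splicing factor. SYT13 was at 0.751 and 1.41 FPKM with siRNA 1 and siRNA 2, against 0.338 FPKM in the control, and SYNGR3 at 1.36 and 1.87 FPKM, against 0.536 FPKM. In H660 0 of 80 such genes were 2-fold above and 0 below, where 0.666% and 0.284% of all genes were. None of these was tested as a group, and PLXND1 itself was reduced less in H660.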
